A study of Mus musculus with 64 samples.

Results

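The 34 genes described here belong to glycolysis and to the response of cells to low oxygen. They were chosen by symbol, from a list of such genes, and all 34 were found among the 23134 rows of the deposited table. By role they are the glucose transporters Slc2a1 and Slc2a3, the hexokinases Hk1 and Hk2, and the enzymes of the pathway from glucose phosphate to pyruvate (Gpi1, Pfkl, Pfkp, Pfkm, Aldoa, Aldoc, Tpi1, Gapdh, Pgk1, Pgam1, Eno1, Eno2, Eno3 and Pkm). Ldha and Ldhb interconvert pyruvate and lactate, and Slc16a1 and Slc16a3 carry lactate across the cell membrane. Pfkfb3, Pfkfb4 and Pdk1 set the flow through the pathway, and Pgm1 and Pgm2 link it to glycogen. Hif1a, Egln1, Egln3, Vegfa, P4ha1, Bnip3 and Ddit4 are the oxygen-sensing factor, its regulators and its known targets.

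T cells that are activated take up more glucose and turn much of it into lactate even when oxygen is at hand. HIF-1, made of the subunit encoded by Hif1a and a constant partner, binds DNA at hypoxia response elements and raises transcription of most glycolytic enzymes. The prolyl hydroxylases encoded by Egln1 and Egln3 mark the subunit for destruction when oxygen is present. Roquin-1 and Roquin-2 (Rc3h1 and Rc3h2) and Regnase-1 (Zc3h12a) are RNA-binding proteins known to shorten the life of mRNAs of T cell activation.

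The cells were CD4 T cells from spleens of C57BL/6J mice, and every genotype carried Cd4-Cre-ERt2, a Cre recombinase made in Cd4-expressing cells and switched on with 4'-OH-tamoxifen. TKO cells came from Rc3h1/2 fl/fl; Zc3h12a fl/fl mice, DKO cells from Rc3h1/2 fl/fl mice and KO cells from Zc3h12a fl/fl mice, while WT cells had the Cre alone. Th1 conditions with anti-CD3/28 were used to activate all cells for 40 h, after which they rested in IL-2 for 2 days. They were then collected directly (0 h) or after a second stimulus of anti-CD3/28 for 1, 2 or 4 h. Each of the 16 groups had 4 libraries, 64 in all. Neither the age and sex of the mice nor the oxygen and glucose of the cultures are given. Nothing in the labels tells whether the 4 libraries of each group are separate mice or cultures, so p-values reflect only a spread among libraries that can be technical. In these bulk samples fewer cells of a type and less RNA per cell cannot be told apart.

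The libraries held 5369849 to 11665883 reads (median 7720324), and levels are given as normalized counts at a common depth of 7720324 reads. All 34 genes passed the filter on low values, as did 16140 genes in all. Changes are log2 differences ± SE from limma (n = 4 libraries per group), with p adjusted over the 16140 genes, and calls are at an adjusted p under 0.05. Each comparison was repeated under 18 alternatives, 4 of them other scalings of the libraries and 8 of them each with 1 library left out. The deleted genes were checked on whole-gene counts only, because the floxed exons are not given. At 4 h Rc3h1 was at 64.3 to 70 CPM (reads scaled to a common library total) in DKO and 68.3 to 87.1 in TKO libraries, against 144 to 163 in WT libraries. At 0 h it overlapped, with 54.3 to 73.1 in DKO and 60 to 80.2 in TKO libraries, against 68.3 to 89.4 in WT libraries. At 1 h Zc3h12a was at 58.7 to 91.4 CPM in KO and 54.6 to 64.6 in TKO libraries, against 103 to 135 in WT libraries. At 0 h, where Zc3h12a was low in WT cells (9.2 to 12 CPM), it was not lower in KO (9.38 to 17.4) or TKO libraries (11.7 to 21.7). At 4 h it overlapped as well, with 12.1 to 22.8 CPM in KO and 14.1 to 17.1 in TKO libraries, against 15.2 to 22.8 in WT libraries. Rc3h2 was not lower either, with 71.2 to 90 CPM in DKO and 83.8 to 121 in TKO libraries at 4 h, against 60.3 to 88.3 in WT libraries. The 7 markers of CD4 T cells summed to 533 to 1140 CPM in every library. The sums were 3.48 to 52.2 for the 2 CD8 T cell markers, 0.87 to 11.6 for 5 B cell markers, 0.63 to 6.5 for the 3 of 5 myeloid markers in the table, 0.963 to 16.9 for the 3 of 4 dendritic cell markers in the table, 0 to 1.01 for 3 NK cell markers, 0 to 0.561 for the 1 of 4 neutrophil markers in the table and 0.412 to 4.94 for the 5 of 6 erythroid or platelet markers in the table. WT library 3 at 0 h and WT library 3 at 2 h stood farthest from the others of their group over all genes. Libraries are numbered by their place in the deposited list, which is not shown to pair any of them across groups.

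Promoter sequences of the 3 genes that fell most and of 2 genes that rose in restimulated WT cells are shown here, because members of both kinds carry the core letters to which HIF-1 is known to bind. Each runs from 250 bases before to 50 bases after a transcription start in RefSeq (build GRCm38.p6), 5′ to 3′ on the gene's strand. Capitals mark ACGTG, which reads CACGT on the opposite strand, together with GCGTG, which reads CACGC there. An ACGTG inside CACGTG, the E-box bound by MYC and related factors, overlaps on both strands and counts as 2.
Slc16a3 (chr11:120948817-120949116, plus strand): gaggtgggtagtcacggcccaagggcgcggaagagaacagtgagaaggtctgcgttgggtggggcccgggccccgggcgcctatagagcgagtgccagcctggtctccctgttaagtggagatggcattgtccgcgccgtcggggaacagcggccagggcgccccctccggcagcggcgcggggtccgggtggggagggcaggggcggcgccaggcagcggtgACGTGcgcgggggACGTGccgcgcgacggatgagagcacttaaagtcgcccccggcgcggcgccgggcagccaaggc
Bnip3 (chr7:138909457-138909756, minus strand): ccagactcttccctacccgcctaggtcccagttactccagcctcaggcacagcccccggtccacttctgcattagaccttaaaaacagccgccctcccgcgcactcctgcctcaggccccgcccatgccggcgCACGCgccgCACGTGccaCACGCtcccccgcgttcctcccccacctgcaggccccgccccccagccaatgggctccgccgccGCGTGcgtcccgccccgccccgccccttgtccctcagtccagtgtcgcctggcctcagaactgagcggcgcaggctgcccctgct
Pdk1 (the first of 2 starts, chr2:71872974-71873273, plus strand): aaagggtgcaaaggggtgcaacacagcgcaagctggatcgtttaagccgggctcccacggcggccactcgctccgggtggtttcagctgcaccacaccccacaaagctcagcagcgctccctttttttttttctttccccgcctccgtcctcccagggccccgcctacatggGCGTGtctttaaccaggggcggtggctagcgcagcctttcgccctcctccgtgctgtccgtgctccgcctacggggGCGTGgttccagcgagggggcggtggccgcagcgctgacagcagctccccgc
Slc16a1 (chr3:104638414-104638713, plus strand): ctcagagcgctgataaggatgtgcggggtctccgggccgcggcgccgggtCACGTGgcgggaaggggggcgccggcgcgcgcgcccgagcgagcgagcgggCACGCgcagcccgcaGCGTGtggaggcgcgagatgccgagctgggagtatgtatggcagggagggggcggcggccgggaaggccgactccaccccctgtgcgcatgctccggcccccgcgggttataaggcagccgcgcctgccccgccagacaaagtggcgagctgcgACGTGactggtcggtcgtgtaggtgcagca
Hk2 (chr6:82774405-82774704, minus strand): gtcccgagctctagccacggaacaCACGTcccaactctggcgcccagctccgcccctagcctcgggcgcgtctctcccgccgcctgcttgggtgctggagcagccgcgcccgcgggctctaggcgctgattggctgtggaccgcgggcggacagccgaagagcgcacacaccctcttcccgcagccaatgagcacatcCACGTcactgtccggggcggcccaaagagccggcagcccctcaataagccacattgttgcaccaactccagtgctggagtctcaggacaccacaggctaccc
Slc16a3 and Hk2 each had 2 ACGTG, Pdk1 had 2 GCGTG, and Bnip3 had 2 ACGTG and 3 GCGTG. Slc16a1 had 3 ACGTG and 2 GCGTG, with 2 of the ACGTG in 1 E-box, and the 2 ACGTG of Bnip3 were also in 1 E-box. RefSeq windows were found for 33 of the 34 genes, 47 in all, and 38 of them (80.9%) held ACGTG or GCGTG, against 14380 of 32851 windows (43.8%) over the whole table. ACGTG, with or without GCGTG, was in 55.3% of the members' windows and 19.6% of all windows, and GCGTG, with or without ACGTG, in 55.3% and 32.4%. These are matches of letters, and no binding was measured. The windows were not matched for base composition, a gene can have several windows, and the genes were chosen as glycolysis and hypoxia genes. What part these have in the difference was not tested.

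In WT cells the larger part of the 34 genes fell by 4 h of restimulation, and the balance of RNA moved toward Slc16a1 among lactate transporters and toward Hk2 among hexokinases. At 4 h 21 genes fell and 3 rose against 0 h, out of 34, where 27.1% of all genes fell and 24.7% rose. The median change of the 34 genes was -1.03 on the log2 scale, against 0.01 over all genes tested, and all 24 calls held under each of 5 scalings of the libraries (24.6% of all genes lower and 24.4% higher). At 2 h 10 genes fell and 5 rose (25.5% and 26.5% of all genes), and at 1 h 2 fell and 3 rose (12.5% and 18.7% of all genes). These splits moved with the scaling: at 1 h 7 fell and 2 rose with library totals, 5 and 2 with upper quartiles, 4 and 2 with median ratios and 2 and 5 with the deposited scaling. At 2 h 18 fell and 3 rose with library totals, 15 and 4 with upper quartiles, 12 and 5 with median ratios and 9 and 5 with the deposited scaling. The median change over all genes moved with the scaling too, from -0.33 to 0.05 at 1 h and from -0.46 to -0.13 at 2 h. The median of the 34 genes minus that of all genes hardly moved, at 0.05 at 1 h and -0.11 to -0.09 at 2 h. Shares of all genes called under each single scaling were not counted. The groups did not overlap for 21 genes that were lower at 4 h, against 24.7% of all genes. In the authors' deposited table, 19 of the 34 genes were lower and 3 higher at 4 h at a deposited rate under 0.05 (11% and 14.2% of its 23134 rows), and 21 of these 22 were called in the same direction here.

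**Figure D1:**
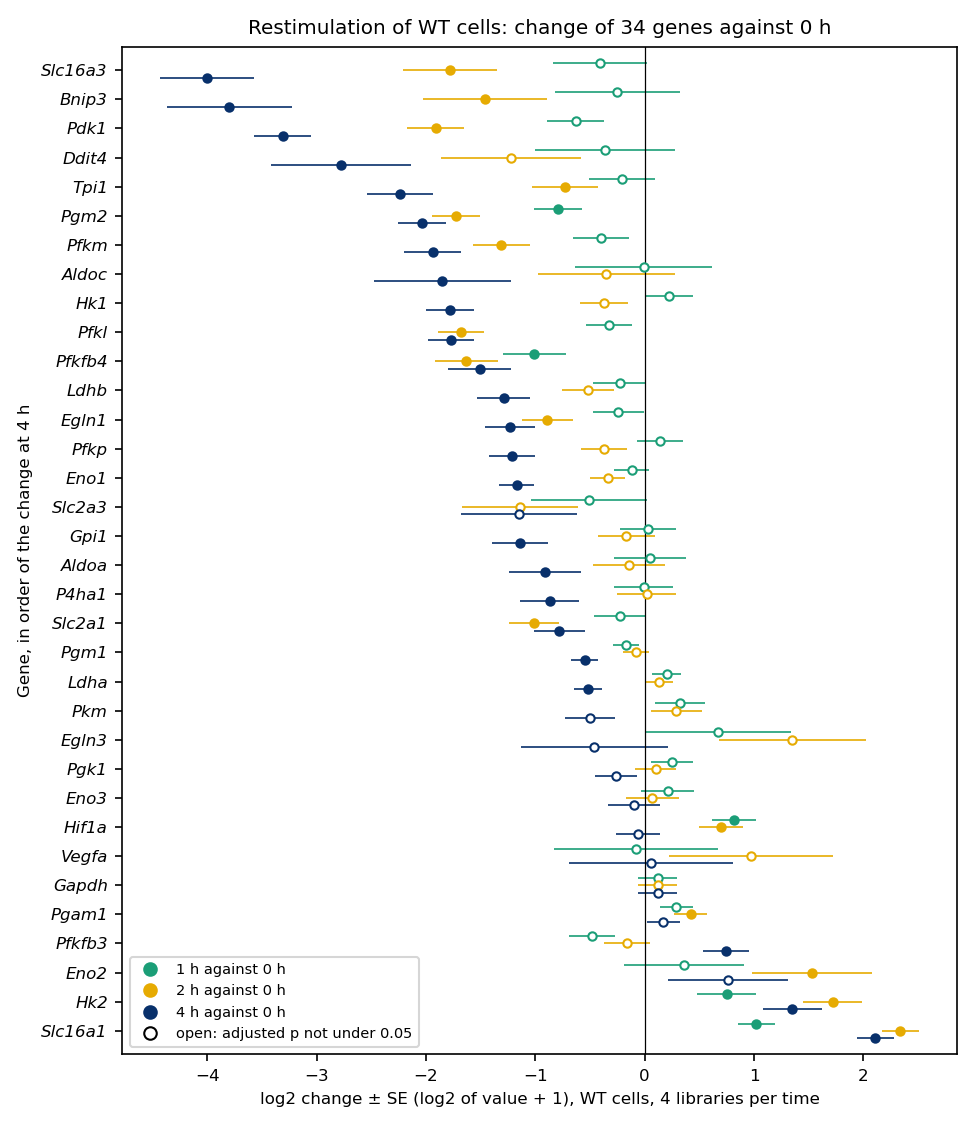
Change of each of the 34 genes in WT cells at 1, 2 and 4 h against 0 h (x axis, log2 ± SE, 4 libraries per time), with genes in order of the change at 4 h. Filled points have an adjusted p under 0.05 and open points do not; at 4 h Slc16a3 stands at -4.00 and Slc16a1 at 2.11.

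The RNAs of the 2 lactate transporters moved in opposite directions. Slc16a3, which encodes MCT4, the exporter known to be under HIF-1 control, had 19.8, 23.1, 25.6 and 17.5 normalized counts in WT libraries at 4 h, against 366, 308, 246 and 569.7 at 0 h. Every library at 4 h was far below every library at 0 h, a change of -4.00 ± 0.43, adjusted p = 1.3e-11. Slc16a1, which encodes MCT1, a carrier that works in both directions, had 1019, 1066, 1069 and 1362 at 4 h, against 278, 276, 330.2 and 177 at 0 h. It rose by 1.02, 2.34 and 2.11 at 1, 2 and 4 h (adjusted p = 3.6e-06, 2.2e-17 and 9.4e-16), with no overlap with 0 h at any of these times. Slc16a3 changed by -1.78 ± 0.43, adjusted p = 0.00035 at 2 h, and its change of -0.41 ± 0.43 at 1 h was not called. Per kilobase of exon, Slc16a1 made up 47.1 ± 14.5%, 69.6 ± 10.2%, 93.3 ± 3.1% and 98.4 ± 0.389% of both transporters at 0, 1, 2 and 4 h (SD, n = 4), a share within a library that no scaling moves. At 4 h the share was 98.2 to 98.6% in DKO, 97 to 98.2% in KO and 96.4 to 98.3% in TKO libraries, against 98.0 to 98.9% in WT libraries, so that Slc16a1 was the larger part in all 16. Slc16a3 lies on chromosome 11, 120948480 to 120960868, plus strand of GRCm38, and Slc16a1 on chromosome 3, 104638668 to 104658462, plus strand.

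The RNA of hexokinase, which traps glucose in the cell as its phosphate, shifted toward the isoform Hk2. Hk2, the inducible isoform, had 859, 917, 1149 and 941 normalized counts at 4 h, against 377, 299.7, 232 and 760.2 at 0 h. The lowest library at 4 h was above the highest at 0 h, which was WT library 4. Hk2 rose by 1.72 ± 0.27, adjusted p = 3.7e-07 at 2 h and by 1.35 ± 0.27, adjusted p = 3e-05 at 4 h. Its change at 1 h, 0.75 ± 0.27, adjusted p = 0.029, was lost under 10 of 18 alternatives, with an adjusted p of 0.22 without WT library 3 at 0 h. Hk1, the constitutive isoform, had 388, 384, 326 and 329 at 4 h, against 1134, 1154, 999.5 and 1731 at 0 h, and fell by 1.78 (SE 0.22, adjusted p = 6.7e-10). At 0, 1, 2 and 4 h Hk2 made up 30.7 ± 6.07%, 38.9 ± 4.24%, 65.0 ± 3.79% and 79.3 ± 3.32% of both hexokinases per kilobase of exon (SD, n = 4). Of the glucose transporters, Slc2a1 (GLUT1) had 459, 402, 457 and 439.8 at 4 h, against 757, 654, 591 and 1098 at 0 h, and changed by -0.78 ± 0.23, adjusted p = 0.0031. It stood lower at 2 h, with 323, 383, 468 and 339 and a change of -1.01 ± 0.23, adjusted p = 0.00016. Slc2a3 (GLUT3) had 188, 194, 242 and 198 at 4 h, against 398, 297, 348 and 1033 at 0 h, where library 4 was well above the other 3, and its change of -1.15 ± 0.53, adjusted p = 0.064 was not called.

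The RNAs of the enzymes that commit and split the sugar fell. Pfkp, the main phosphofructokinase of these cells by counts per length, had 1020, 1075, 1163 and 1119 normalized counts at 4 h, against 2273, 2357, 2136 and 3590 at 0 h, a change of -1.21 ± 0.21, adjusted p = 2.2e-06. Its relative Pfkl fell at both 2 h (-1.68 ± 0.21, adjusted p = 5.9e-10) and 4 h (-1.77 ± 0.21, adjusted p = 1.2e-10), and Pfkm at 4 h had a change of -1.94 ± 0.26, adjusted p = 6.4e-09. In the authors' deposited table Pfkm was also lower at 2 h, with a log2 fold change of -1.22 and a deposited rate of 0.017. Pfkm overlaps Senp1 on the opposite strand, which had 1103% as many reads, and the strand used in counting is not given, so the reads of the 2 genes cannot be told apart. Pfkp overlaps Pitrm1 in the same way, which had 21.8% as many reads. Triosephosphate isomerase (Tpi1) had 374, 304, 237 and 244 at 4 h, against 1550, 1452, 812 and 1817 at 0 h, and fell by 2.24 (adjusted p = 7.9e-09), and at 2 h it changed by -0.73 ± 0.30, adjusted p = 0.039, a call lost under 7 of 18 alternatives (adjusted p = 0.22 without WT library 3 at 2 h). Gpi1, the glucose phosphate isomerase, changed by -1.14 ± 0.26, adjusted p = 0.00016 at 4 h. Aldolase A (Aldoa) had 2141, 2136, 2228 and 1835, against 4412, 3906, 2498 and 5434, with every library at 4 h below every library at 0 h, and a change of -0.91 ± 0.33, adjusted p = 0.018. That call, and those of Aldoc (-1.85 ± 0.63) and P4ha1 (-0.87 ± 0.27), were lost without WT library 4 at 0 h (adjusted p = 0.08, 0.066 and 0.053).

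Both phosphoglucomutase genes, Pdk1 and Pfkfb4 fell by 4 h, while Pfkfb3 rose. The gene that the table calls Pgm2 (ENSMUSG00000025791, named Pgm1 in the GENCODE M21 annotation) had 104, 106, 94.3 and 101 normalized counts at 4 h, against 339.5, 328, 401 and 695 at 0 h. Its change was -0.79, -1.73 and -2.04 at 1, 2 and 4 h (adjusted p = 0.0034, 9.6e-10 and 6.8e-12), with the first lost without WT library 4 at 0 h (adjusted p = 0.058). The gene that the table calls Pgm1 (ENSMUSG00000029171, named Pgm2 in that annotation) changed by -0.55 ± 0.12, adjusted p = 0.00013. Pdk1, which holds back pyruvate from the mitochondrion by inhibiting pyruvate dehydrogenase, had 123, 106, 91.6 and 93.7 at 4 h, against 902, 945, 842 and 1574 at 0 h. All 4 libraries at 4 h lay far below all 4 at 0 h, and the changes were -1.91 ± 0.26, adjusted p = 1.4e-08 at 2 h and -3.31 ± 0.26, adjusted p = 5.3e-16 at 4 h. Pfkfb4 and Pfkfb3 make and remove the activator of phosphofructokinase. Pfkfb4 fell at 1 h (-1.01 ± 0.29, adjusted p = 0.0049), 2 h (-1.63 ± 0.29, adjusted p = 2.8e-06) and 4 h (-1.51 ± 0.29, adjusted p = 1.1e-05). Pfkfb3 had 448, 454, 511 and 419 at 4 h, against 271, 201, 229 and 445 at 0 h, and rose by 0.74 ± 0.21, adjusted p = 0.0018, although library 4 at 0 h reached into the range of 4 h.

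Among the enzymes at the end of the pathway Eno1, Ldha and Ldhb fell, and 6 others were not called at 4 h. Enolase 1 (Eno1) had 749, 768, 602 and 615 normalized counts at 4 h, against 1840, 1479, 1292 and 1551 at 0 h, with no overlap and a change of -1.17 ± 0.16, adjusted p = 1.1e-08. Ldha, which makes lactate, had 3447, 3729, 3558 and 3360, against 5781, 4839, 4064 and 5675, and fell by 0.52 (adjusted p = 0.00089). Its relative Ldhb fell by 1.29 (adjusted p = 8.3e-06). Pyruvate kinase (Pkm) had 4819, 4991, 5230 and 4183, against 7635, 6596, 4661 and 9059, a change of -0.50 ± 0.23, adjusted p = 0.062 that was not called. Gapdh had 173, 179, 148 and 182, against 169.8, 137, 135 and 191, and its interval of -0.24 to 0.48 (2 SE on either side of 0.12) includes 0. Gapdh, Aldoa, Pgk1, Pgam1 and Ldha each have 2 annotated pseudogenes named after them, and the deposited Gapdh level in WT cells at 0 h was 4.96 ± 0.853 CPM per kilobase of exon, against 181 ± 54.3 for Aldoa, 181 ± 47.9 for Pkm and 199 ± 31.4 for Ldha. Counts of these genes are uncertain where reads were shared with such copies. Pseudogenes under other names were not looked for, so copies of these and of the other genes can have been missed. Reads from Iffo1, which overlaps Gapdh on the opposite strand, came to 30.6% as many as those of Gapdh. Pgk1 (-0.26 ± 0.19), Pgam1 (0.17 ± 0.15), Eno2 (0.76 ± 0.55) and Eno3 (-0.10 ± 0.24) were not called at 4 h, while at 2 h Pgam1 had a change of 0.42 ± 0.15, adjusted p = 0.018 and Eno2 of 1.53 ± 0.55, adjusted p = 0.016, calls lost under 8 and 5 of 18 alternatives. Without WT library 1 at 0 h the adjusted p of Eno2 was 0.091.

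Among the genes of the oxygen response, Hif1a itself rose for a short time. By 4 h Bnip3, Ddit4, Egln1 and P4ha1 fell, the last by a call lost without WT library 4 at 0 h, while Egln3 and Vegfa were not called. Hif1a had 2723, 3425, 2878 and 2747 normalized counts at 1 h and 2505, 2496, 2552 and 3288 at 2 h, against 1568, 1498, 1599 and 2001 at 0 h. All libraries at 1 and 2 h were above those at 0 h, with changes of 0.82 ± 0.20, adjusted p = 0.00067 and 0.70 ± 0.20, adjusted p = 0.002. At 4 h it had 1625, 1676, 1789 and 1290, which overlapped 0 h (change -0.06 ± 0.20). Bnip3, a receptor for the removal of mitochondria and a known HIF-1 target, had 20.9, 25.1, 26.6 and 10.3 at 4 h, against 285, 304, 136 and 567 at 0 h, a change of -3.80 ± 0.57, adjusted p = 8.8e-08. Its change at 2 h, -1.46 ± 0.57, adjusted p = 0.026, was lost without WT library 4 at 0 h (adjusted p = 0.12) and without WT library 3 at 2 h (adjusted p = 0.14). Ddit4 (REDD1), an inhibitor of the kinase mTOR, had 13.6, 15.4, 16.5 and 19.9 at 4 h, against 105, 108, 107 and 156 at 0 h, and fell by 2.78 (adjusted p = 0.00021). Egln1 fell at 2 h (-0.89 ± 0.23, adjusted p = 0.0011) and 4 h (-1.23 ± 0.23, adjusted p = 1e-05), and P4ha1, a collagen prolyl hydroxylase subunit, had an adjusted p of 0.0056 at 4 h. Egln3 had 439, 397, 594 and 260.4 at 4 h, against 579, 578, 239 and 1220 at 0 h, and neither it (-0.46 ± 0.67) nor Vegfa (0.06 ± 0.75), which encodes a growth factor for blood vessels, was called at any time. These 2 genes had the widest spread between libraries of a group among the 34, with ratios of highest to lowest of up to 19.7 for Egln3 and 19.6 for Vegfa.

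**Figure D2:**
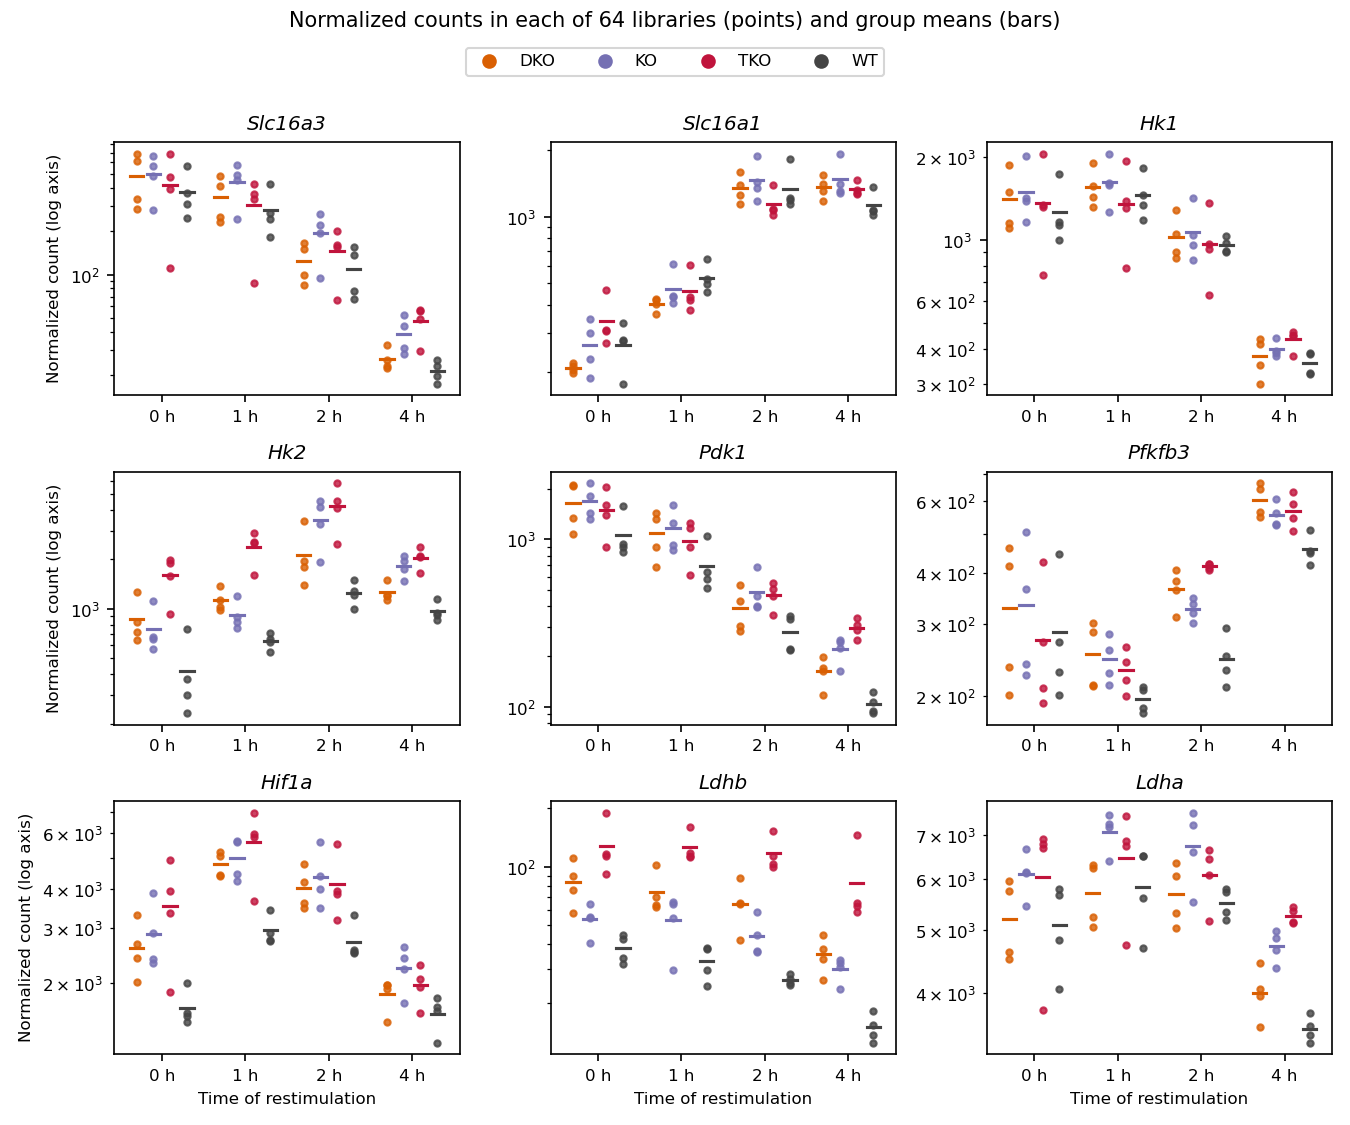
Normalized counts (log axis, its range set for each gene) of 9 of the genes in each of the 64 libraries at 0, 1, 2 and 4 h, with points for libraries, bars for group means, and DKO, KO, TKO and WT from left to right at each time. Slc16a3 and Pdk1 fall and Slc16a1 rises with time, the mean of Hk2 and of Ldhb is highest in TKO cells at each time, and the mean of Hif1a is highest at 1 h in each genotype.

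All calls between knockout and WT cells were in the direction of more RNA in the knockout. Over 12 comparisons (3 knockouts at 4 times) there were 62 calls, all higher, and 20 of the 34 genes were called at least once. The share of all genes called at least once over the 12 comparisons was not counted, so the 20 cannot be set against it. With DKO cells 4, 4, 1 and 1 genes were higher at 0, 1, 2 and 4 h, where 5.35%, 5.95%, 7.96% and 4.69% of all genes were higher. With KO cells the counts were 1, 1, 2 and 11 (1.15%, 1.84%, 4.68% and 21.7% of all genes). With TKO cells they were 7, 5, 8 and 17 (19.3%, 15.8%, 20.1% and 27.4% of all genes). No gene was lower, where 2.3%, 2.28%, 1.52% and 0.675% of all genes were lower with DKO, 0.167%, 0.328%, 1.26% and 11.6% with KO and 18.2%, 15.8%, 16.6% and 16.5% with TKO cells. This count of 0 was at an adjusted p under 0.05 with limma on log values or with limma voom, and at an unadjusted p under 0.05 1 was lower in DKO cells at 1 h (Slc16a1) and 1 at 2 h (Pfkfb4). Of the 62 calls 30, for 10 genes, held under all 5 scalings. These were 3, 2, 1 and 1 genes with DKO (4.41%, 4.07%, 4.12% and 2.03% of all genes), 0, 0, 1 and 1 with KO (0.917%, 1%, 1.9% and 3.35%) and 4, 5, 5 and 7 with TKO cells (12.2%, 8.61%, 15% and 11%). The median change of the 34 genes exceeded that of all genes by 0.21 to 0.38 in each of the 12 comparisons, and by 0.21 to 0.39 over all scalings. With the deposited scaling 12 genes were higher in DKO and 10 in KO cells at 0 h, while 1 gene (Pfkfb4) was lower in DKO cells at 2 h and 1 (Slc16a1) in TKO cells at 1 h. The share of all genes called with that scaling alone was not counted. Over the 5 scalings the median change of all genes at 0 h lay from -0.09 to 0.23 in DKO and from -0.07 to 0.22 in KO cells. At each time the 3 knockouts share the same 4 WT libraries, so the 12 comparisons are not independent.

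**Figure D3:**
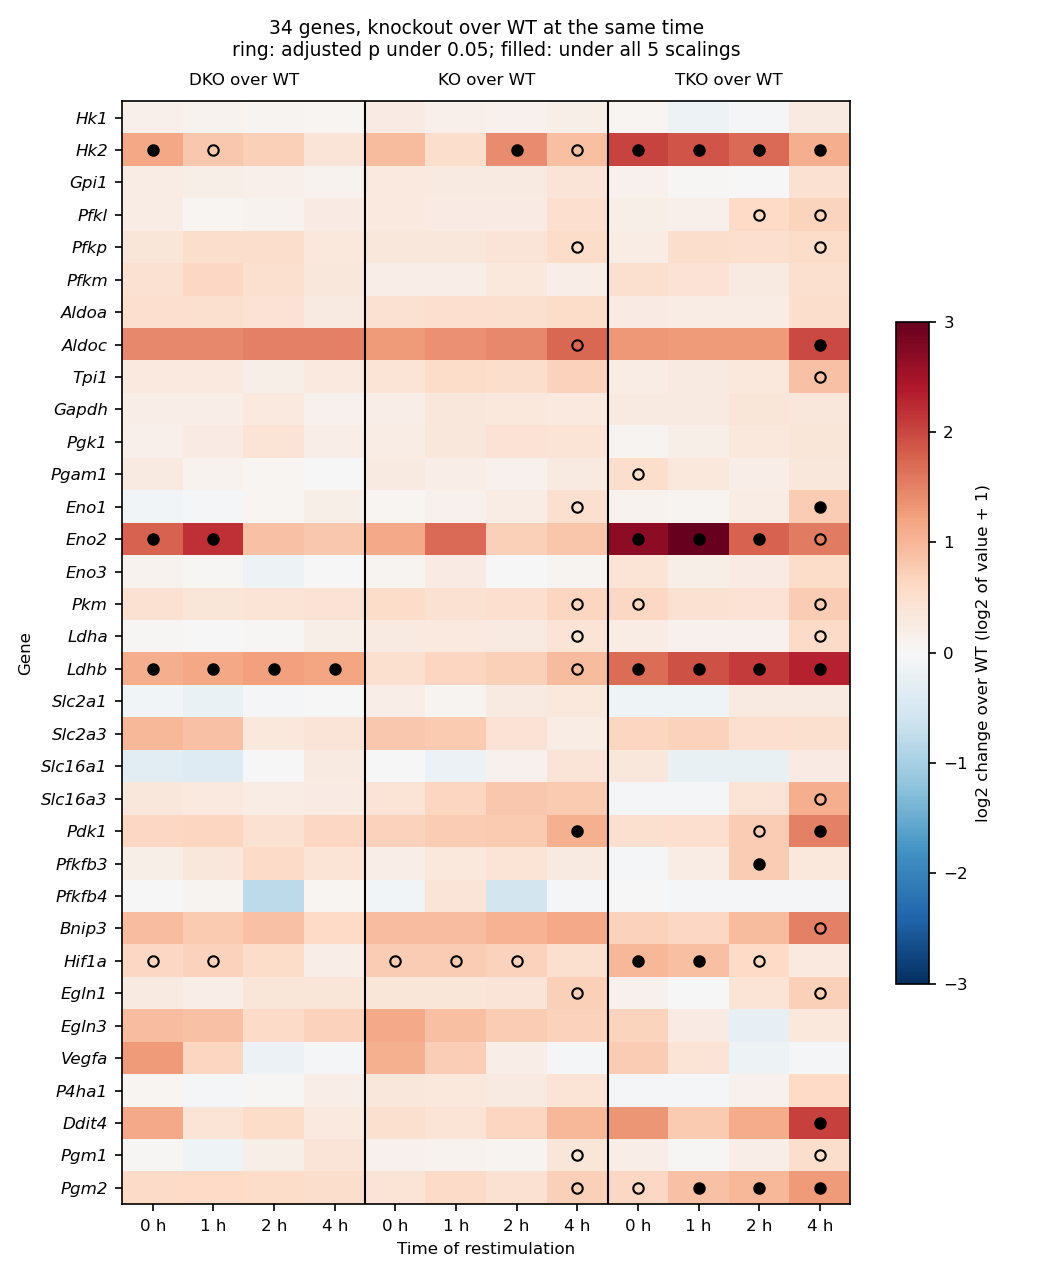
Change of the 34 genes (rows) in DKO, KO and TKO over WT cells at 0, 1, 2 and 4 h (columns; colour is log2, white at 0). Rings mark an adjusted p under 0.05 and filled points a call under all 5 scalings; Hk2, Eno2, Ldhb and Pgm2 carry most of the filled points.

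Hk2 was higher in TKO cells at every time. In TKO cells at 0 h it had 1903, 1994, 1582 and 927 normalized counts, against 377, 299.7, 232 and 760.2 in WT cells, and rose by 2.03 ± 0.27, adjusted p = 7.8e-08. No TKO library overlapped WT at any time, and the change was 1.88, 1.71 and 1.08 at 1, 2 and 4 h (adjusted p = 4.6e-07, 2.3e-06 and 0.0013), called under all 18 alternatives at each time. In DKO cells Hk2 had 837, 643, 1267 and 728 at 0 h and rose by 1.16 ± 0.27, adjusted p = 0.0038, which was lost without WT library 3 at 0 h (adjusted p = 0.052). At 1 h the DKO change of 0.82 ± 0.27, adjusted p = 0.049 was lost under 14 of 18 alternatives (adjusted p = 0.17 without DKO library 2), and at 2 and 4 h it was 0.71 ± 0.27 and 0.38 ± 0.27 without a call. In KO cells Hk2 had 4156, 3297, 4512 and 1922 at 2 h, against 1286, 995, 1224 and 1499 in WT cells, and rose by 1.41 ± 0.27, adjusted p = 0.00039 under all 18 alternatives. The KO change of 0.91 ± 0.27, adjusted p = 0.011 at 4 h was called under 1 of 5 scalings, and those at 0 and 1 h were 0.95 ± 0.27 and 0.52 ± 0.27 without a call. As a share of both hexokinases within a library at 0 h, Hk2 was 58.2 to 67.2% in TKO, 44.5 to 49.3% in DKO and 39.9 to 44.2% in KO libraries, against 24.9 to 38.6% in WT libraries. None of the 3 knockouts overlapped WT in this share, which was chosen after the values were seen and was not tested. At 4 h it was 86.2 to 88.3% in TKO, 80.3 to 84.4% in DKO and 84.2 to 87.7% in KO libraries, against 76.0 to 83.4% in WT libraries. Hk2 is ENSMUSG00000000628, chromosome 6, 82725025 to 82774454, minus strand.

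Ldhb, the lactate dehydrogenase subunit known for turning lactate back to pyruvate, was higher at every time without Roquin. In TKO cells at 4 h it had 145, 58.8, 62.7 and 65 normalized counts, against 12.5, 15.4, 13.7 and 18.3 in WT cells, and rose by 2.30 ± 0.24, adjusted p = 8.8e-11. Library 1 stood above the other 3 TKO libraries, and all 4 were above WT. At 0, 1 and 2 h the TKO changes were 1.68, 1.92 and 2.10. In DKO cells Ldhb had 90.1, 76.5, 111 and 57.9 at 0 h, against 44.7, 33.9, 31.8 and 42.4 in WT cells, and the changes were 1.09, 1.16, 1.23 and 1.18 at 0, 1, 2 and 4 h. These 8 calls held under all 18 alternatives, with no overlap between knockout and WT libraries, and their adjusted p ranged up to 0.002. In KO cells Ldhb rose at 4 h only by the test (0.95 ± 0.24, adjusted p = 0.0033, called under 4 of 5 scalings), with changes of 0.48 ± 0.24, 0.65 ± 0.24 and 0.71 ± 0.24 before. Ldhb remained a small part of lactate dehydrogenase RNA. Per kilobase of exon it was 2.77 to 9.59% of Ldha and Ldhb at 0 h in TKO, 2.57 to 3.78% in DKO and 1.38 to 2.1% in KO libraries, against 1.45 to 1.62% in WT libraries. Ldhb is ENSMUSG00000030246, chromosome 6, 142490249 to 142507957, minus strand.

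Eno2, the enolase known from neurons, had few reads, and its fold changes are understated on this scale. At 0 h it had 27.8, 38.4, 12.7 and 32 normalized counts in TKO cells, against 1.02, 3.98, 3.81 and 5.2 in WT cells, a change of 2.69 ± 0.55, adjusted p = 0.00013, with no overlap. The TKO changes were 3.0, 1.77 and 1.56 at 1, 2 and 4 h (adjusted p = 3e-05, 0.009 and 0.019), and the last was lost without TKO library 4 (adjusted p = 0.06) or WT library 2 (adjusted p = 0.082). In DKO cells Eno2 had 5.52, 9.44, 43.3 and 12.7 at 0 h and 10.3, 45.5, 27.9 and 21.6 at 1 h, against 1.02, 3.98, 3.81 and 5.2 and 13.1, 5.66, 1.09 and 3.17 in WT cells. Both were called (1.78 ± 0.55, adjusted p = 0.034, and 2.18 ± 0.55, adjusted p = 0.0062), but the call at 0 h was lost without DKO library 3 (adjusted p = 0.27), DKO library 4 (0.061) or WT library 1, 2 or 3 (0.17, 0.053 and 0.053), and that at 1 h was lost without WT library 3 (adjusted p = 0.064). KO cells had changes of 1.14 ± 0.55, 1.71 ± 0.55, 0.72 ± 0.55 and 0.84 ± 0.55 over the 4 times and no call.

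Hif1a was called higher in all 3 knockouts at 0 and 1 h, with calls in DKO and KO cells that depended on the scaling. At 0 h it had 3923, 4948, 3344 and 1865 normalized counts in TKO, 2409, 2012, 3287 and 2667 in DKO and 2887, 3865, 2307 and 2392 in KO cells, against 1568, 1498, 1599 and 2001 in WT cells. Every DKO and KO library was above every WT library, and among TKO libraries library 4 reached into the WT range. The changes were 1.00 ± 0.20, adjusted p = 7.1e-05 in TKO, 0.62 ± 0.20, adjusted p = 0.037 in DKO and 0.76 ± 0.20, adjusted p = 0.028 in KO cells. At 1 h they were 0.90 ± 0.20, adjusted p = 0.00039 in TKO, 0.70 ± 0.20, adjusted p = 0.015 in DKO and 0.76 ± 0.20, adjusted p = 0.021 in KO cells. At 2 h TKO (0.59 ± 0.20, adjusted p = 0.015) and KO cells (0.68 ± 0.20, adjusted p = 0.026) were called and DKO cells (0.56 ± 0.20) were not. The TKO calls at 0 and 1 h held under all 18 alternatives, and they were the only 2 of the 8 calls that held under all 5 scalings. Those of DKO at 0 h and KO at 0, 1 and 2 h held under 1 to 3 of 5 scalings. The authors' deposited rates at 0, 1 and 2 h were 0.024, 0.008 and 0.031 in TKO cells. They were 0.047, 0.002 and 0.08 in DKO cells and 0.085, 0.009 and 0.057 in KO cells. Of 8 fits with 1 library left out, 6 ended the call for DKO at 0 h (adjusted p of up to 0.2, without DKO library 3), 5 that for KO at 0 h (up to 0.22, without KO library 2), 5 that for KO at 1 h (up to 0.1, without KO library 2) and 5 that for KO at 2 h (up to 0.17, without KO library 3). The calls for DKO at 1 h and TKO at 2 h each ended in 1, without DKO library 2 (adjusted p = 0.062) and without TKO library 4 (adjusted p = 0.097). At 4 h no knockout was called, with changes of 0.30 ± 0.20 in TKO, 0.21 ± 0.20 in DKO and 0.48 ± 0.20 in KO cells.

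At 4 h several of the genes that fell with restimulation stood higher in TKO than in WT cells. The 7 called under all 5 scalings were Hk2, Ldhb and 5 others. Pdk1 had 252, 308, 289 and 339 normalized counts in TKO cells, against 123, 106, 91.6 and 93.7 in WT cells, and rose by 1.51 ± 0.26, adjusted p = 1e-05. The gene called Pgm2 in the table had 241, 250.5, 209 and 292, against 104, 106, 94.3 and 101, and rose by 1.27 ± 0.22, adjusted p = 7e-06. No TKO library overlapped WT for these 2 genes. Ddit4 had 35.1, 75.9, 88.6 and 100.5, against 13.6, 15.4, 16.5 and 19.9, and Eno1 had 978, 1307, 1014 and 1319, against 749, 768, 602 and 615, with changes of 2.05 ± 0.64, adjusted p = 0.0085 and 0.75 ± 0.16, adjusted p = 0.00021. Aldoc, the aldolase known from brain, changed by 1.98 ± 0.63, adjusted p = 0.0092, but TKO library 1 lay within the WT range and the call was lost without TKO library 4 (adjusted p = 0.056). Pgm2 was also higher in TKO cells at 1 h (0.89 ± 0.22, adjusted p = 0.0014) and 2 h (1.00 ± 0.22, adjusted p = 0.00026) under all 18 alternatives. At 0 h its change of 0.63 ± 0.22, adjusted p = 0.019 was lost under 9 of 18 (adjusted p = 0.14 without WT library 2). Pfkfb3 was higher at 2 h alone by the test, with 412, 408, 422 and 420.4 in TKO cells, against 251, 231, 293 and 210.5 in WT cells (0.76 ± 0.21, adjusted p = 0.0027, all 18 alternatives). In KO cells at 4 h Pdk1 alone held under all scalings, with 164, 243, 223 and 250.1, against 123, 106, 91.6 and 93.7 in WT cells (1.07 ± 0.26, adjusted p = 0.0024). Pgm2 overlaps Itgb3bp on the opposite strand, which had 21.5% as many reads.

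The remaining calls at 4 h depended on the scaling of the libraries. The median change of all genes was 0.22 in KO and 0.20 in TKO cells against WT cells, and -0.06 and -0.08 at the lowest under other scalings. In TKO cells the other called genes were Bnip3 (1.52), Eno2 (1.56), Slc16a3 (1.09), Tpi1 (0.88), Pkm (0.77), Egln1 (0.71), Pfkl (0.67), Ldha (0.58), Pfkp (0.55) and Pgm1 (0.53), with adjusted p from 0.0005 to 0.035. In KO cells they were Aldoc (1.73), Ldhb (0.95), Hk2 (0.91), Egln1 (0.72), Pgm2 (0.72), Pkm (0.65), Pfkp (0.54), Eno1 (0.47), Ldha (0.42) and Pgm1 (0.36), with adjusted p from 0.0033 to 0.043. With 4 other scalings 7 to 11 genes were called in TKO and 1 to 2 in KO cells. Without WT library 1 at 4 h the KO count of 11 became 2, and without TKO library 4 at 4 h the TKO count of 17 became 8. Shares of all genes under these single scalings and fits were not counted. Ldha had 5153, 5346, 5135 and 5432 normalized counts in TKO and 4993, 4874, 4383 and 4661 in KO cells at 4 h, against 3447, 3729, 3558 and 3360 in WT cells, with no overlap. Bnip3 had 35.1, 68.3, 79.7 and 59.1 in TKO cells, against 20.9, 25.1, 26.6 and 10.3 in WT cells, and the call was lost in 5 of 8 fits with 1 library left out (adjusted p of up to 0.14, without WT library 4). Slc16a3 had 29.6, 56, 56.4 and 49.3, against 19.8, 23.1, 25.6 and 17.5, and its call was lost in 6 of 8 (adjusted p of up to 0.12, without WT library 4). In the authors' deposited table, 17 of the 34 genes were higher in TKO cells at 4 h (10.3% of its rows), 16 of them also called here, and 9 were higher in KO cells (3.71% of its rows), 7 of them also called here. The 2 markers of CD8 T cells, Cd8a and Cd8b1, summed to 21.5 to 30.5 CPM in TKO and 14.1 to 52.2 CPM in KO libraries at 4 h, against 4.98 to 17.7 CPM in WT libraries, and their part in these results was not tested.

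Other calls before 4 h in TKO cells were of the same direction and smaller. Pkm (0.62 ± 0.23, adjusted p = 0.027) and Pgam1 (0.53 ± 0.15, adjusted p = 0.0055) were called at 0 h, with TKO library 4 within the WT range for both, under 2 and 4 of 5 scalings. The Pkm call was lost in 5 of 8 fits with 1 library left out (adjusted p of up to 0.28, without WT library 3), and the Pgam1 call without WT library 3 (0.13) and without TKO library 2 (0.057). Pkm had 12810, 14850, 12230 and 5165 normalized counts in TKO cells, against 7635, 6596, 4661 and 9059 in WT cells. At 2 h Pdk1 (0.75 ± 0.26, adjusted p = 0.021) and Pfkl (0.60 ± 0.21, adjusted p = 0.02) were called, under 3 and 2 of 5 scalings. The 14 genes never called against WT were Hk1, Gpi1, Pfkm, Aldoa, Gapdh, Pgk1, Eno3, Slc2a1, Slc2a3, Slc16a1, Pfkfb4, Egln3, Vegfa and P4ha1. The glucose transporter Slc2a1 had changes of -0.19 to 0.32 over the 12 comparisons, and the lactate transporter Slc16a1 of -0.38 to 0.38. Gapdh changes were 0.14 to 0.37. In contrast Slc2a3 had changes of 0.22 to 0.99 and Egln3 of -0.25 to 1.14, and their spread between libraries of a group covered differences of that size.

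Ldhb at 4 h was higher in TKO cells than in either other knockout, with no overlap of libraries. Hk2 at 0 h was higher with libraries that overlapped, and its call against DKO cells depended on the scaling. At 0 h Ldhb in TKO cells was above KO cells by 1.20 ± 0.24, adjusted p = 0.00043, and Hk2 by 1.08 ± 0.27, adjusted p = 0.0043, both under all 18 alternatives. These were 2 of 3 genes called (11.4% of all genes were higher), and Eno2 (1.55 ± 0.55, adjusted p = 0.038) was the third, a call lost under 9 of 18 alternatives (adjusted p = 0.13 without KO library 1). Against DKO cells at 0 h 2 genes were higher (8.71% of all genes), Hk2 (0.87 ± 0.27, adjusted p = 0.025) and Slc16a1 (0.67 ± 0.17, adjusted p = 0.0073), and neither held under all 5 scalings (2.27% of all genes). The Hk2 call held under 2 of 5 scalings and was lost in 4 of 8 fits with 1 library left out (without DKO library 2 or 4 or TKO library 1 or 2, adjusted p from 0.072 to 0.095). Neither gene passed in this comparison in the authors' deposited table, with rates of 0.085 for Hk2 and 0.061 for Slc16a1. Slc16a1 had 309.7, 270, 306 and 468 normalized counts in TKO cells, against 204, 219, 197 and 212 in DKO cells. At 4 h 5 genes were higher in TKO than in DKO cells (7.46% of all genes), and Ldhb (1.11 ± 0.24, adjusted p = 0.0016) held under all scalings (2.91% of all genes). The others were Pdk1 (0.88), Pgm2 (0.75), Eno1 (0.57) and Ldha (0.40), and without DKO library 4 the count became 1. Against KO cells at 4 h Ldhb was the 1 gene called (1.35 ± 0.24, adjusted p = 0.00026; 1.96% of all genes were higher). No gene differed between a knockout and WT in its change from 0 to 4 h at an adjusted p under 0.05, where 0.824%, 2.19% and 6.63% of all genes did for DKO, KO and TKO. At an unadjusted p under 0.05 there were 1, 0 and 5 genes, and limma voom called none. With the deposited scaling 2 genes, Hk2 and Hif1a, were called with a lower change in TKO than in WT cells. Without TKO library 4 at 0 h the TKO count became 3.

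The 34 genes varied together between the libraries of a group. In 11 of the 16 groups 1 library was the lowest of 4 for at least 20 of the 34 genes, and in 11 groups 1 library was the highest for at least 20. The largest counts were 28 at both ends, while over all genes tested the same libraries were lowest for 19 to 35% and highest for 25 to 32.3%. In TKO cells library 4 was lowest for 28 genes at 0 h (33% of all genes) and for 28 at 1 h (33.9%), library 2 for 25 at 2 h (28.6%) and library 1 for 21 at 4 h (33.3%). Ldha shows it at 0 h, with 6916, 6790, 6700 and 3771 normalized counts in the 4 TKO libraries, and Aldoa with 6352, 7715, 5508 and 1681. Bnip3 had 692, 1023, 598 and 111 and Egln3 1405, 2492, 1383 and 127 in the same libraries. Against this, Slc16a1 (309.7, 270, 306 and 468) and Ldhb (116, 91.7, 114 and 189.7) were highest in TKO library 4 at 0 h. In DKO cells at 0 h library 3 was highest for 27 genes (25% of all genes) and library 2 lowest for 27 (28.4%), and in WT cells at 0 h library 4 was highest for 27 (30.9%) and library 3 lowest for 23 (28.2%). At 4 h at most 17 genes were highest in 1 library of any group, while DKO library 4 was lowest for 23 (35% of all genes).

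**Figure D4:**
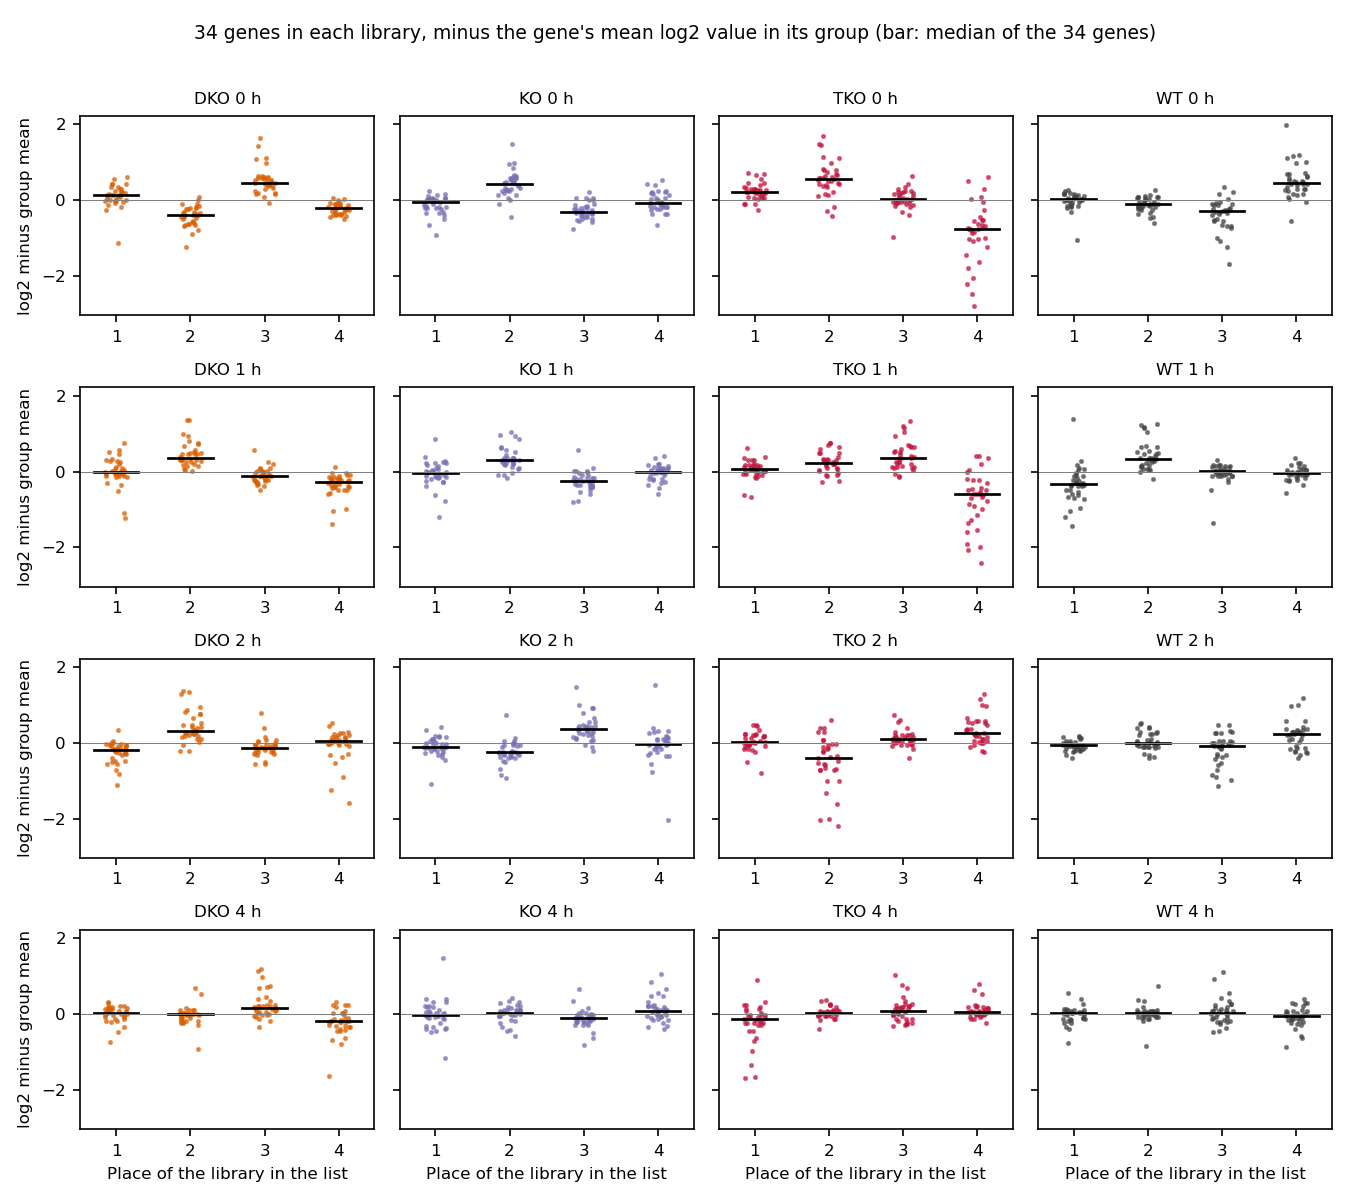
Each of the 34 genes (points) in each library (x axis, place in the list of its group) as log2 value minus the mean of its group, for all 16 groups; black bars are medians over the 34 genes. The median of library 4 is -0.76 in TKO cells at 0 h and -0.59 at 1 h, that of library 2 in TKO cells at 2 h is -0.40, and the medians lie closer to 0 at 4 h.

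Counts of called genes moved when single libraries were left out. The share of all genes called in those fits was not counted, so the moves cannot be read as particular to the 34 genes. Without TKO library 4 the number of genes higher in TKO than in WT cells was 14 at 0 h in place of 7 and 11 at 1 h in place of 5, and without TKO library 2 at 2 h it was 12 in place of 8. Without WT library 3 at 0 h the DKO count at 0 h was 1 in place of 4, and without DKO library 2 at 1 h it was 2 in place of 4. The 10 most abundant loci took 38.3% of the reads in TKO library 4 at 0 h and 36.4% at 1 h, against 34.01 to 34.9% and 31.0 to 33.7% in the other TKO libraries at those times, and the part of this in the spread was not tested. The genes with the widest spread within groups were Vegfa, Egln3, Ddit4, Aldoc, Bnip3, Eno2 and Slc2a3 (SD of 1.08, 0.95, 0.92, 0.90, 0.81, 0.81 and 0.75 on the log2 scale). Pgm1 and Ldha had the narrowest, with SD of 0.16 and 0.19, and the median over all genes was 0.328.

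In the other libraries the glucose transporters and hexokinases had these normalized counts. In TKO libraries Slc2a1 had 720.3, 1189, 650, 405 at 0 h, then 528, 552, 840.2, 477 at 1 h, then 437, 482, 435, 467 at 2 h and 522, 517, 572, 525 at 4 h. In DKO libraries Slc2a1 had 870.5, 448, 1100, 590.2 at 0 h, then 647, 825, 442, 417 at 1 h, then 304, 416, 325, 396 at 2 h and 478, 384, 439, 444 at 4 h. Slc2a1 was highest on average in KO cells at 0 h (889 ± 286) and lowest in DKO cells at 2 h (360.2 ± 54.1; SD, n = 4). In KO libraries Slc2a1 had 684, 1294, 692, 884 at 0 h, then 800.2, 838, 517, 632 at 1 h, then 391, 464, 473, 486 at 2 h and 640.5, 464, 515, 591 at 4 h. In WT libraries Slc2a1 had 604, 822, 595 and 570.1 at 1 h. Slc2a1 libraries lay wholly above WT in TKO at 4 h, in KO at 4 h, and overlapped WT otherwise. In TKO libraries Slc2a3 had 926, 1943, 679, 203 at 0 h, then 456, 584, 1283, 198 at 1 h, then 303, 175, 294, 464 at 2 h and 251, 299, 284, 303 at 4 h. In DKO libraries Slc2a3 had 1143, 386, 1942, 777 at 0 h, then 846, 1515, 421, 225 at 1 h, then 173, 428, 230.4, 244 at 2 h and 266, 235, 309, 263 at 4 h. Slc2a3 was highest on average in DKO cells at 0 h (1062 ± 663) and lowest in WT cells at 4 h (205 ± 24.7; SD, n = 4). In KO libraries Slc2a3 had 609, 1596, 588, 725 at 0 h, then 619, 1138, 319, 402 at 1 h, then 223, 235, 524, 218 at 2 h and 246, 212, 204, 299 at 4 h. In WT libraries Slc2a3 had 253, 714, 264, 215 at 1 h and 191, 157, 213, 277 at 2 h. Slc2a3 libraries lay wholly above WT in TKO at 4 h, and overlapped WT otherwise. In TKO libraries Hk2 had 2524, 2886, 2546, 1606 at 1 h, then 4106, 2492, 4549, 5820 at 2 h and 1648, 2101, 2373, 2056 at 4 h. In DKO libraries Hk2 had 1034, 1381, 1137, 984 at 1 h, then 1797, 3420, 1954, 1399 at 2 h and 1200, 1214, 1494, 1139 at 4 h. Hk2 was highest on average in TKO cells at 2 h (4242 ± 1370) and lowest in WT cells at 0 h (417 ± 236; SD, n = 4). In KO libraries Hk2 had 655, 1112, 569, 672 at 0 h, then 838, 891, 765, 1201 at 1 h and 1755, 1944, 1477, 2097 at 4 h. In WT libraries Hk2 had 654, 718, 631 and 548 at 1 h. Hk2 libraries lay wholly above WT in TKO at 0, 1, 2 and 4 h, in DKO at 1 h, in KO at 1, 2 and 4 h, and overlapped WT otherwise.

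In the other libraries the first enzymes of the pathway and their regulators had these normalized counts. In TKO libraries Pfkp had 3115, 4651, 2971, 1782 at 0 h, then 3921, 4094, 5500, 2871 at 1 h, then 2555, 2499, 2596, 3539 at 2 h and 1367, 1560, 1906, 1607 at 4 h. In DKO libraries Pfkp had 3601, 2516, 4732, 2705 at 0 h, then 3995, 5515, 3654, 3241 at 1 h, then 2238, 3898, 2384, 2997 at 2 h and 1340, 1271, 1629, 1265 at 4 h. Pfkp was highest on average in DKO cells at 1 h (4101 ± 992) and lowest in WT cells at 4 h (1094 ± 61.2; SD, n = 4). In KO libraries Pfkp had 2965, 4376, 2406, 3292 at 0 h, then 3549, 4364, 2963, 3435 at 1 h, then 2155, 2076, 3380, 2894 at 2 h and 1558, 1554, 1504, 1771 at 4 h. In WT libraries Pfkp had 2335, 3593, 2641, 2707 at 1 h and 1757, 1775, 1985, 2395 at 2 h. Pfkp libraries lay wholly above WT in TKO at 2 and 4 h, in DKO at 4 h, in KO at 4 h, and overlapped WT otherwise. In TKO libraries Pfkfb3 had 271, 426, 209, 192 at 0 h, then 219, 243, 263, 199.5 at 1 h and 507, 590.1, 633, 546 at 4 h. In DKO libraries Pfkfb3 had 417, 201, 462, 236 at 0 h, then 301, 286, 213, 211 at 1 h, then 364, 312, 408, 382 at 2 h and 664, 565, 642, 548 at 4 h. Pfkfb3 was highest on average in DKO cells at 4 h (605 ± 56.8) and lowest in WT cells at 1 h (196 ± 14.4; SD, n = 4). In KO libraries Pfkfb3 had 225, 506, 239, 366 at 0 h, then 259, 283, 228, 212 at 1 h, then 302, 337, 348, 319 at 2 h and 525, 562, 528, 607 at 4 h. In WT libraries Pfkfb3 had 210.4, 207, 182 and 187 at 1 h. Pfkfb3 libraries lay wholly above WT in TKO at 2 h, in DKO at 1, 2 and 4 h, in KO at 1, 2 and 4 h, and overlapped WT otherwise. In WT libraries Pfkfb4 had 45.7, 40.8, 41.9, 53.7 at 0 h and 21.5, 35.1, 15.3, 20.1 at 1 h. Pfkfb4 was highest on average in DKO cells at 0 h (46.1 ± 12.9) and lowest in DKO cells at 2 h (8.77 ± 4.79; SD, n = 4). Pfkfb4 libraries overlapped WT in every knockout at every time. In TKO libraries Aldoa had 5188, 6686, 7461, 1960 at 1 h, then 4927, 2081, 4795, 6097 at 2 h and 2205, 3170, 3494, 3355 at 4 h. In DKO libraries Aldoa had 5662, 4213, 7967, 4863 at 0 h, then 5756, 8068, 5210, 4248 at 1 h, then 3942, 6429, 4201, 5030 at 2 h and 2501, 2131, 3311, 2244 at 4 h. Aldoa was highest on average in KO cells at 1 h (5826 ± 941) and lowest in WT cells at 4 h (2085 ± 172; SD, n = 4). In KO libraries Aldoa had 5627, 6487, 4564, 4935 at 0 h, then 5211, 7169, 5141, 5785 at 1 h, then 4945, 3826, 6696, 4818 at 2 h and 3414, 2944, 2627, 3161 at 4 h. In WT libraries Aldoa had 2480, 5905, 4548, 4002 at 1 h and 3438, 4152, 2442, 4584 at 2 h. Aldoa libraries lay wholly above WT in KO at 4 h, and overlapped WT otherwise. In TKO libraries Aldoc had 62.8, 258, 328 and 312 at 4 h. In KO libraries Aldoc had 132, 212, 108 and 269 at 4 h. Aldoc was highest on average in TKO cells at 0 h (607 ± 373) and lowest in WT cells at 4 h (56.6 ± 35.2; SD, n = 4). In WT libraries Aldoc had 39.6, 44.3, 109 and 33.3 at 4 h. Aldoc libraries overlapped WT in every knockout at every time. In DKO libraries Pgm2 had 166, 144, 150.4 and 126 at 4 h. In WT libraries Pgm2 had 185, 308, 246, 248 at 1 h and 111, 154, 130.3, 113 at 2 h. Pgm2 was highest on average in TKO cells at 0 h (673 ± 202) and lowest in WT cells at 4 h (101 ± 5.15; SD, n = 4). Pgm2 libraries lay wholly above WT in TKO at 1, 2 and 4 h, in DKO at 2 and 4 h, in KO at 4 h, and overlapped WT otherwise.

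In the other libraries the last enzymes of the pathway had these normalized counts. In TKO libraries Gapdh had 191, 253, 199, 131 at 0 h, then 213, 269.8, 244, 129 at 1 h, then 257, 158, 232, 248 at 2 h and 208, 215, 223, 221 at 4 h. In DKO libraries Gapdh had 166, 167, 273, 138 at 0 h, then 187, 248, 164, 192 at 1 h, then 203, 249, 188, 198 at 2 h and 195, 188, 209.8, 162 at 4 h. Gapdh was highest on average in TKO cells at 2 h (224 ± 45.3) and lowest in WT cells at 0 h (158 ± 27.2; SD, n = 4). In KO libraries Gapdh had 184, 197, 166, 171 at 0 h, then 179.9, 260.4, 219, 218 at 1 h, then 208, 204, 286, 165 at 2 h and 212, 225, 189, 216 at 4 h. In WT libraries Gapdh had 146, 209, 162, 169 at 1 h and 166, 180.1, 163, 173 at 2 h. Gapdh libraries lay wholly above WT in TKO at 4 h, in DKO at 2 h, in KO at 4 h, and overlapped WT otherwise. In TKO libraries Eno1 had 2065, 1869, 1864, 1039 at 0 h, then 1673, 1859, 1599, 994 at 1 h and 1635, 947, 1744, 1516 at 2 h. In DKO libraries Eno1 had 1435, 1301, 1609, 1443 at 0 h, then 1318, 1543, 1362, 1282 at 1 h, then 1247, 1288, 1281, 1247 at 2 h and 882, 777, 838, 612 at 4 h. Eno1 was highest on average in TKO cells at 0 h (1709 ± 457) and lowest in WT cells at 4 h (683 ± 87; SD, n = 4). In KO libraries Eno1 had 1581, 1673, 1676, 1501 at 0 h, then 1533, 1619, 1521, 1532 at 1 h, then 1449, 1348, 1586, 1291 at 2 h and 874, 1004, 960.2, 938 at 4 h. In WT libraries Eno1 had 1103, 1460, 1729, 1396 at 1 h and 1336, 1406, 994, 1151 at 2 h. Eno1 libraries lay wholly above WT in TKO at 4 h, in KO at 4 h, and overlapped WT otherwise. In TKO libraries Eno2 had 26.8, 40.8, 49.5, 56 at 1 h and 22.3, 61.4, 38.1, 48 at 2 h. In KO libraries Eno2 had 4.79, 11.2, 6.47 and 12.4 at 0 h. Eno2 was highest on average in TKO cells at 1 h (43.3 ± 12.6) and lowest in WT cells at 0 h (3.5 ± 1.77; SD, n = 4). In WT libraries Eno2 had 9.08, 8.08, 13.5 and 14.5 at 2 h. Eno2 libraries lay wholly above WT in TKO at 0, 1, 2 and 4 h, in DKO at 0 h, and overlapped WT otherwise. In TKO libraries Pkm had 12780, 14100, 14760, 6826 at 1 h, then 12480, 6891, 13110, 14350 at 2 h and 5959, 8707, 9196, 9236 at 4 h. In DKO libraries Pkm had 9280, 7903, 11960, 8440 at 0 h, then 10430, 13600, 10370, 9845 at 1 h, then 10100, 13090, 10180, 11050 at 2 h and 6566, 6342, 7399, 5567 at 4 h. Pkm was highest on average in TKO cells at 1 h (12120 ± 3620) and lowest in WT cells at 4 h (4806 ± 448; SD, n = 4). In KO libraries Pkm had 10380, 12330, 8528, 8779 at 0 h, then 10800, 13880, 10340, 12010 at 1 h, then 11660, 9981, 14720, 11160 at 2 h and 7521, 7659, 6891, 8078 at 4 h. In WT libraries Pkm had 6095, 11310, 9412, 7960 at 1 h and 8352, 8452, 6491, 10410 at 2 h. Pkm libraries lay wholly above WT in TKO at 4 h, in DKO at 4 h, in KO at 4 h, and overlapped WT otherwise.

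In the other libraries the lactate and pyruvate genes had these normalized counts. In TKO libraries Ldha had 6748, 7489, 6869, 4739 at 1 h and 6651, 5161, 6446, 6077 at 2 h. In DKO libraries Ldha had 5737, 4517, 5952, 4627 at 0 h, then 6230, 6310, 5245, 5065 at 1 h, then 5310, 6060, 5041, 6342 at 2 h and 4069, 3965, 4456, 3553 at 4 h. Ldha was highest on average in KO cells at 1 h (7090 ± 490) and lowest in WT cells at 4 h (3524 ± 159; SD, n = 4). In KO libraries Ldha had 6155, 6675, 5445, 6122 at 0 h, then 7273, 7508, 6383, 7198 at 1 h and 6593, 5526, 7582, 7258 at 2 h. In WT libraries Ldha had 4690, 6501, 6501, 5601 at 1 h and 5333, 5732, 5185, 5782 at 2 h. Ldha libraries lay wholly above WT in TKO at 4 h, in KO at 4 h, and overlapped WT otherwise. In TKO libraries Ldhb had 117, 114, 112, 159 at 1 h and 103, 152, 114, 99.2 at 2 h. In DKO libraries Ldhb had 70.2, 102, 62.2, 63.9 at 1 h, then 64.8, 87.4, 42, 64.3 at 2 h and 33.8, 37.9, 44.5, 26.3 at 4 h. Ldhb was highest on average in TKO cells at 0 h (128 ± 42.7) and lowest in WT cells at 4 h (15 ± 2.49; SD, n = 4). In KO libraries Ldhb had 54.7, 64.1, 55.5, 40.6 at 0 h and 23.4, 32, 33.4, 30.6 at 4 h. In WT libraries Ldhb had 24.6, 38.5, 29.5, 38 at 1 h and 26.4, 25.4, 24.7, 28 at 2 h. Ldhb libraries lay wholly above WT in TKO at 0, 1, 2 and 4 h, in DKO at 0, 1, 2 and 4 h, in KO at 2 and 4 h, and overlapped WT otherwise. In WT libraries Slc16a1 had 642, 457, 525, 497 at 1 h and 1139, 1212, 1819, 1186 at 2 h. Slc16a1 was highest on average in KO cells at 4 h (1479 ± 301) and lowest in DKO cells at 0 h (208 ± 9.64; SD, n = 4). Slc16a1 libraries lay wholly below WT in DKO at 1 h, and overlapped WT otherwise. In TKO libraries Slc16a3 had 472, 689.9, 391, 111 at 0 h, then 337, 363, 422, 87.6 at 1 h and 156, 67, 160.3, 201 at 2 h. In DKO libraries Slc16a3 had 684, 286, 619, 334 at 0 h, then 483, 411, 250.4, 232 at 1 h, then 99.7, 151, 85, 164 at 2 h and 23.2, 25.5, 22.2, 32.2 at 4 h. Slc16a3 was highest on average in KO cells at 0 h (499 ± 165) and lowest in WT cells at 4 h (21.5 ± 3.6; SD, n = 4). In KO libraries Slc16a3 had 480.4, 668, 279, 566 at 0 h, then 493, 573, 241, 454 at 1 h, then 196, 94.6, 264, 221 at 2 h and 43.9, 27.9, 30.7, 52.3 at 4 h. In WT libraries Slc16a3 had 183, 428, 245, 266 at 1 h and 76.7, 137, 67.4, 154 at 2 h. Slc16a3 libraries lay wholly above WT in TKO at 4 h, in KO at 4 h, and overlapped WT otherwise. In TKO libraries Pdk1 had 1601, 2062, 1390, 905 at 0 h, then 902, 1163, 1255, 614 at 1 h and 461, 354, 508, 546 at 2 h. In DKO libraries Pdk1 had 2124, 1075, 2084, 1347 at 0 h, then 1320, 1443, 906, 688 at 1 h, then 284, 537, 305, 431 at 2 h and 199, 165, 169.5, 118 at 4 h. Pdk1 was highest on average in KO cells at 0 h (1688 ± 384) and lowest in WT cells at 4 h (104 ± 14.5; SD, n = 4). In KO libraries Pdk1 had 1435, 2166, 1326, 1823 at 0 h, then 1258, 1605, 862, 932 at 1 h and 393, 400.4, 685, 456 at 2 h. In WT libraries Pdk1 had 509, 1051, 580.5, 637 at 1 h and 219.5, 334, 220.1, 348 at 2 h. Pdk1 libraries lay wholly above WT in TKO at 2 and 4 h, in KO at 2 and 4 h, and overlapped WT otherwise.

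In the other libraries the genes of the oxygen response had these normalized counts. In TKO libraries Hif1a had 5961, 5862, 6989, 3653 at 1 h, then 3856, 3173, 3937, 5569 at 2 h and 1602, 1938, 2290, 2056 at 4 h. In DKO libraries Hif1a had 4387, 5249, 5079, 4432 at 1 h, then 3472, 4804, 3590, 4194 at 2 h and 1964, 1976, 1910, 1506 at 4 h. Hif1a was highest on average in TKO cells at 1 h (5616 ± 1400) and lowest in WT cells at 4 h (1595 ± 214; SD, n = 4). In KO libraries Hif1a had 4440, 5680, 4234, 5649 at 1 h, then 3975, 3481, 5625, 4389 at 2 h and 1732, 2404, 2221, 2602 at 4 h. Hif1a libraries lay wholly above WT in TKO at 1 h, in DKO at 0, 1 and 2 h, in KO at 0, 1 and 2 h, and overlapped WT otherwise. In TKO libraries Egln3 had 1623, 1590, 2428, 196 at 1 h, then 1654, 299, 1582, 2668 at 2 h and 199, 653, 853, 574 at 4 h. In DKO libraries Egln3 had 895, 768, 2086, 888 at 0 h, then 1279, 2738, 1533, 1387 at 1 h, then 1768, 4145, 1729, 1641 at 2 h and 617, 556, 1086, 477 at 4 h. Egln3 was highest on average in KO cells at 2 h (2670 ± 1370) and lowest in WT cells at 4 h (422 ± 137; SD, n = 4). In KO libraries Egln3 had 1290, 2222, 856, 957 at 0 h, then 1080, 3030, 1343, 1788 at 1 h, then 2544, 1844, 4647, 1647 at 2 h and 498, 759.9, 530.1, 908 at 4 h. In WT libraries Egln3 had 385, 1963, 962, 855 at 1 h and 1377, 1392, 769, 2835 at 2 h. Egln3 libraries overlapped WT in every knockout at every time. In TKO libraries Bnip3 had 459, 584, 765, 93.7 at 1 h and 222, 79.3, 232, 405 at 2 h. In DKO libraries Bnip3 had 586, 418, 829.8, 432 at 0 h, then 409, 729, 342, 296 at 1 h, then 128, 345, 127, 225 at 2 h and 26.1, 43.6, 41.3, 16.8 at 4 h. Bnip3 was highest on average in TKO cells at 0 h (606 ± 377) and lowest in WT cells at 4 h (20.7 ± 7.33; SD, n = 4). In KO libraries Bnip3 had 605, 793, 405, 458 at 0 h, then 417, 725, 302, 487 at 1 h, then 189, 130.5, 369, 224 at 2 h and 31.8, 59.8, 30.7, 65 at 4 h. In WT libraries Bnip3 had 88.3, 496, 270, 282 at 1 h and 98.2, 122, 46, 202 at 2 h. Bnip3 libraries lay wholly above WT in TKO at 4 h, in KO at 4 h, and overlapped WT otherwise. In TKO libraries Ddit4 had 356, 523, 280.1, 146 at 0 h, then 196, 269, 229, 52.3 at 1 h and 149, 34.6, 166, 162 at 2 h. In DKO libraries Ddit4 had 267, 161, 548, 192 at 0 h, then 51.4, 239.5, 179, 95.2 at 1 h, then 52.4, 183, 129, 24.1 at 2 h and 17.4, 32.9, 45.6, 5.85 at 4 h. Ddit4 was highest on average in TKO cells at 0 h (326 ± 157) and lowest in WT cells at 4 h (16.3 ± 2.64; SD, n = 4). In KO libraries Ddit4 had 128, 317, 169, 104 at 0 h, then 52.3, 235, 182, 98.8 at 1 h, then 69.8, 132, 221, 18.3 at 2 h and 14.4, 22.1, 53.5, 70.9 at 4 h. In WT libraries Ddit4 had 70.6, 90.5, 91.8, 117 at 1 h and 56.9, 71.6, 24.7, 61.2 at 2 h. Ddit4 libraries lay wholly above WT in TKO at 4 h, in DKO at 0 h, and overlapped WT otherwise.

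Genes of neighbouring pathways were read from 6 lists, of which Gbe1 is in both the hypoxia and the glycogen list. In WT cells at 4 h, where 27.1% of all genes fell and 24.7% rose, 14 of 28 further hypoxia genes fell and 4 rose, among them the mitochondrial receptor Bnip3l (-2.52 ± 0.36), the HIF subunit Epas1 (-1.89 ± 0.68) and, upward, the carbonic anhydrase Car12 (2.45 ± 0.27). Of 8 glycogen genes 7 fell and none rose, with the synthase Gys1 (-2.36 ± 0.37) and the phosphorylase Pygb (-1.69 ± 0.16) as examples. Of 9 other glycolysis genes 4 rose and 1 fell, of 7 pentose phosphate genes 3 rose and none fell, and of 12 genes of pyruvate entry to the mitochondrion 4 rose and 3 fell. Dlat (0.97 ± 0.15), a subunit of pyruvate dehydrogenase, and Pdk3 (-0.58 ± 0.13), a kinase that inhibits it, are examples of each direction. Of 14 regulators 6 rose and 3 fell, led by Irf4 (2.55 ± 0.21) and Myc (1.86 ± 0.18), which drive T cell glycolysis, and by Txnip (-4.15 ± 0.69), a brake on glucose uptake.

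Between TKO and WT cells the calls in these lists were nearly all higher. At 0 h 10 of the 28 hypoxia genes were higher and none lower (5 under all scalings), where 19.3% of all genes were higher (12.2% under all scalings), including Hif3a (2.45 ± 0.42), a HIF subunit, Egln2 (1.38 ± 0.16), a prolyl hydroxylase, and Vhl (0.81 ± 0.19), part of the ligase that removes HIF-1. At 4 h 11 were higher and none lower (6 under all scalings), where 27.4% of all genes were higher (11% under all scalings) and 16.5% lower, with Egln2 at 1.58 ± 0.16 and Ak4, a mitochondrial adenylate kinase, at 2.00 ± 0.45. The counts higher under all scalings at 0 and 4 h were 1 and 1 of 9 glycolysis, 2 and 1 of 7 pentose phosphate, 3 and 1 of 12 pyruvate entry, 2 and 3 of 8 glycogen and 3 and 1 of 14 regulator genes, beside the 12.2% and 11% of all genes. Gyg, which primes glycogen, was higher at both times (0.97 ± 0.15 and 1.26 ± 0.15), and Stat3 (1.06 ± 0.12) and Irf4 (1.3 ± 0.21) were higher at 0 h. Hkdc1, a hexokinase-related gene, was lower at both (-1.69 ± 0.51 and -1.70 ± 0.51), with 4.53 ± 4.58 normalized counts in TKO cells at 0 h, against 14.2 ± 6.77 in WT cells (SD, n = 4 each). In DKO cells at 0 h 5 of the 28 hypoxia genes were higher and none lower (4 under all scalings), where 5.35% of all genes were higher (4.41% under all scalings). In KO cells at 0 h none passed, where 1.15% of all genes were higher.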

How the data were processed

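RNA of 64 libraries of mouse CD4 T cells (total RNA in Trizol, NuGEN Universal RNA-Seq kit, per the labels' protocols) was sequenced by the authors, with GRCm38 as genome build per the submitters' processing notes. Aligner, counter, annotation and strand: not given in the sources used here. The deposited table gives for each of 23134 rows the normalized counts of the 4 libraries of each group as a list, per the file headers. Its group means are the authors' deposited signal values and differed from the means of the lists by at most 0.049%. Its log2 fold changes and its p-value column, a false discovery rate, are the authors' deposited values and are used only where named. That column is headed as the worst rate, and which rates it was taken over is not given. The low values of every library were whole multiples of 1 read within 0.1 (100% of them), which gave the library totals. The 10 most abundant loci took 27.5 to 38.3% of the reads.

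From the lists, reads were scaled by TMM (trims of 30% and 5%) to 7720324 reads, the median total. Genes with 10 reads at the median depth (1.3 CPM) in at least 4 libraries and 15 reads in all were kept (16140 genes), and log2(value + 1) was tested in limma 3.58.1 (R 4.3.3) with 1 mean per group, 48 residual degrees of freedom and Benjamini-Hochberg adjustment over all genes, for 22 comparisons. A count model was not the test because the deposited values are normalized. Fold changes on this scale understate those of low genes. Alternatives were 4 other scalings, a pseudocount of 5, no filter, the groups compared alone, the place in the list as a block, limma voom on the recovered reads, and libraries left out. The code was tested on simulated data. Libraries of a group differed by more than sampling noise (chi-square per degree of freedom 4.52 to 60.13), and none was counted as a repeat of another. Figures were drawn with matplotlib 3.10.9. Exon lengths came from GENCODE M21 (GRCm38), and promoters from RefSeq (GRCm38.p6).

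The 34 genes, the 6 lists and the markers were chosen with earlier results of these data known. Values in every library are given for 16 genes and, per comparison, for the 3 called genes with the largest rise and the 3 with the largest fall. Most other called genes are named with their change, but not every gene called lower in WT cells at 2 h is.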

Additional observations from a re-analysis of the deposited data

Results flagged for a closer look

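In 39 of 544 groups of 4 libraries (34 genes in 16 groups) 1 library stood apart from the other 3 by Dixon's criterion, where chance flags about 1 in 20. Values are normalized counts, and the cause was not tested. Gpi1, the glucose phosphate isomerase, had 4522 in DKO library 2 at 1 h (the others 2802 to 3016) and 1582 in TKO library 2 at 2 h (the others 2797 to 2997). Pfkl, a phosphofructokinase, had 189 in DKO library 2 at 2 h (the others 165 to 166) and 172 in KO library 4 at 4 h (the others 226 to 229.9). Pfkp, a phosphofructokinase, had 3539 in TKO library 4 at 2 h (the others 2499 to 2596) and 3590 in WT library 4 at 0 h (the others 2136 to 2357). Pfkm, a phosphofructokinase, had 52.4 in TKO library 4 at 2 h (the others 29.8 to 31.3). Aldoc, an aldolase, had 109 in WT library 3 at 4 h (the others 33.3 to 44.3). Eno1, the main enolase, had 1619 in KO library 2 at 1 h (the others 1521 to 1533). Eno2, an enolase, had 34 in KO library 1 at 4 h (the others 6.14 to 9.02).

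The same held for genes later in the pathway and for the transporters. Eno3, an enolase, had 21.9 in WT library 2 at 0 h (the others 33.8 to 34.6). Pkm, pyruvate kinase, had 13600 in DKO library 2 at 1 h (the others 9845 to 10430) and 5959 in TKO library 1 at 4 h (the others 8707 to 9236). Ldha, a lactate dehydrogenase subunit, had 3771 in TKO library 4 at 0 h (the others 6700 to 6916). Ldhb, a lactate dehydrogenase subunit, had 159 in TKO library 4 at 1 h (the others 112 to 117) and 145 in TKO library 1 at 4 h (the others 58.8 to 65). Slc2a1, GLUT1, had 572 in TKO library 3 at 4 h (the others 517 to 525) and 822 in WT library 2 at 1 h (the others 570.1 to 604). Slc2a3, GLUT3, had 1596 in KO library 2 at 0 h (the others 588 to 725), 524 in KO library 3 at 2 h (the others 218 to 235), 1033 in WT library 4 at 0 h (the others 297 to 398) and 714 in WT library 2 at 1 h (the others 215 to 264). Slc16a1, MCT1, had 613 in KO library 1 at 1 h (the others 408 to 439), 1819 in WT library 3 at 2 h (the others 1139 to 1212) and 1362 in WT library 4 at 4 h (the others 1019 to 1069).

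Regulators and genes of the oxygen response made up the rest. Pdk1, the pyruvate dehydrogenase kinase, had 1574 in WT library 4 at 0 h (the others 842 to 945). Pfkfb4, a regulator of phosphofructokinase, had 11.7 in DKO library 4 at 4 h (the others 17.3 to 18.3). Hif1a, the HIF-1 subunit, had 1506 in DKO library 4 at 4 h (the others 1910 to 1976) and 3288 in WT library 4 at 2 h (the others 2496 to 2552). Egln3, a HIF prolyl hydroxylase, had 2086 in DKO library 3 at 0 h (the others 768 to 895) and 4145 in DKO library 2 at 2 h (the others 1641 to 1768). Vegfa, a growth factor, had 233 in DKO library 3 at 0 h (the others 46.3 to 76.3), 205 in KO library 2 at 0 h (the others 38.4 to 64.7), 159 in KO library 3 at 2 h (the others 57.5 to 66.7) and 62.7 in KO library 4 at 4 h (the others 25.4 to 30.7). P4ha1, a collagen hydroxylase subunit, had 1372 in KO library 2 at 0 h (the others 694 to 799). Ddit4, an mTOR inhibitor, had 34.6 in TKO library 2 at 2 h (the others 149 to 166) and 156 in WT library 4 at 0 h (the others 105 to 108). Pgm1, a phosphoglucomutase, had 132 in DKO library 4 at 2 h (the others 106 to 109).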

How the results depend on the processing

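Under the alternatives run (18 for a comparison of 2 groups) no called gene of the 34 reversed its direction. Without leaving out a library, 7216 values kept their side of the threshold, 184 lost and 80 gained a call, and with 1 library left out 6561 kept it, 161 lost and 78 gained a call. The counts of called genes moved by more than 1.5 times as follows, and the cause was not tested. Shares of all genes called under each single alternative were not counted, so moves of these counts can be shared by all genes. With the deposited scaling they were 12 (DKO 0 h), 2 (DKO 2 h), 10 (KO 0 h), 1 (KO 2 h), 2 (KO 4 h), 7 (TKO 4 h), 0 and 1 (TKO over DKO at 0 and 4 h) and 2 (TKO minus WT in the change from 0 to 4 h). Scaled by library total they were 9 (WT 1 h), 2 (DKO 1 h), 0 (KO 0 h), 0 (KO 1 h), 1 (KO 2 h), 2 (KO 4 h), 10 (TKO 4 h) and 1 and 1 (TKO over DKO at 0 and 4 h). Median-ratio scaling gave 0 (KO 0 h), 1 (KO 2 h), 2 (KO 4 h), 5 (TKO 2 h), 11 (TKO 4 h) and 3 (TKO over DKO at 4 h), and upper-quartile scaling 0 (KO 0 h), 0 (KO 1 h), 1 (KO 2 h), 1 (KO 4 h), 4 (TKO 0 h), 5 (TKO 2 h), 7 (TKO 4 h) and 1 and 1 (TKO over DKO at 0 and 4 h). Fitting the groups compared alone gave 1 (DKO 0 h), 5 (DKO 4 h), 0 (KO 0 h), 1 (KO 2 h), and 0 and 8 (TKO over DKO at 0 and 4 h).

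Limma voom and the fit without WT library 3 at 0 h and at 2 h were added after seeing the data. Without those 2 libraries the counts were 1 (DKO 0 h), 2 (DKO 2 h), 0 (KO 0 h), 1 (KO 2 h), 6 (KO 4 h), 4 (TKO 0 h) and 1 (TKO minus WT in the change). With 1 library left out the ranges were 4 to 7, 12 to 19 and 21 to 26 (WT 1, 2 and 4 h), 1 to 6, 2 to 7, 1 to 2 and 1 to 2 (DKO 0, 1, 2 and 4 h), 0 to 2, 0 to 2, 1 to 2 and 2 to 10 (KO), 4 to 14, 5 to 11, 6 to 12 and 8 to 17 (TKO), 1 to 5 and 1 to 6 (TKO over DKO at 0 and 4 h), 2 to 4 and 1 to 1 (TKO over KO) and 0 to 3 (TKO minus WT in the change). A count test in edgeR, planned as an alternative, was not run. The deposited columns are normalized lists, and limma voom was run on the reads recovered from them instead.

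With the place in the list as a replicate block, the counts were those of the fit without it except for 3 (DKO 1 h), 12 (KO 4 h) and 6 (TKO over DKO at 4 h). The places carry no number from the labels, and whether libraries are paired across times is not given. Residuals of same-place libraries had median correlations of -0.04 to 0.04, from -0.5 to 0.71. These pairs were pooled over genotypes and times, so they cannot show whether libraries of a genotype are paired across times. Library totals limit the precision of genes with few reads, such as Eno2.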
